A study of Mus musculus with 19 samples.

Results

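The genes described here make and remodel long-chain fatty acids: Acly, Acaca, Fasn, Elovl6, Elovl5, Scd1, Scd2, Fads1, Fads2 and Srebf1. They were taken by symbol, as 10 of the 39017 genes of a count table, and all 10 passed the filter on low counts that left 16352 genes for testing. Each was followed in tumor cells taken from lean and from obese mice at 2 times after implantation.

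The cells were E0771, a mouse mammary carcinoma line that carried the red fluorescent protein mCherry in every group. In each C57BL/6 host, 50000 of these cells were placed in the mammary fat pad, and the hosts were either lean (named Chow in the sample titles) or obese (named HFD). Tumors were taken apart at day 14, the midpoint, or at day 21, the endpoint, and mCherry-positive cells were sorted and their RNA sequenced. The comparisons use 18 libraries, each from its own tumor: 4 lean and 5 obese at midpoint, and 4 lean and 5 obese at endpoint. All tumors came from the same line, so the results describe 1 cancer model. The sources used here do not give the promoter that drove mCherry or the ages of the hosts.

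Cells build fatty acids from cytosolic acetyl-CoA, which ATP citrate lyase (Acly) cuts from citrate. Acetyl-CoA carboxylase (Acaca) turns it into malonyl-CoA, and fatty acid synthase (Fasn) joins these units into palmitate with the help of NADPH. Elongases lengthen the chain, stearoyl-CoA desaturases set its first double bond, and the Fads enzymes add further double bonds to dietary polyunsaturated chains. The transcription factor SREBP-1, made from Srebf1, is a main activator of these genes in lipid-making tissues such as liver, fat and mammary gland.

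Total counts of the 18 libraries ran from 44174080 to 56996252. Replicate 4 of the lean endpoint group held 11889188 counts and none outside chromosomes 1 to 5, and was not used in the comparisons. Of the 10 genes, Elovl6 alone lies on chromosomes 1 to 4, and its value in that library is given beside its result. The libraries also differed in how counts depended on the GC content of genes. The slope of this trend, in log2 CPM (counts scaled to the library total) per 10 percentage points of GC, was 0.114 to 0.473 in lean and 0.348 to 1.62 in obese midpoint libraries, and -0.94 to -0.0666 in lean and -0.938 to -0.447 in obese endpoint libraries. Obese midpoint libraries 2 and 3 had the steepest slopes, at 1.62 and 1.29. The share of counts from mitochondrial genes was 5.79% to 12.3% at midpoint and 17.1% to 44.7% at endpoint, with the highest share in lean endpoint library 1. The comparisons of the 10 genes are therefore given as counted and again with each library's trend with GC content and length removed, written here as corrected.

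The sorted cells carried Vim, the mesenchymal filament vimentin, at group means of 5223 to 5996 CPM. Of 6 epithelial markers, Krt8 was present at group means of 20.9 to 47.8 CPM, while Krt18, Krt19, Epcam, Cdh1 and Krt7 stayed under 1 CPM in all groups. Of 9 fat cell markers, Adipoq, Cidec, Lep, Cfd, Pck1 and Retn were under 1 CPM in all 4 groups. Group means of the other 3 were 4.02 to 40.7 CPM for Fabp4, highest in lean endpoint cells, 4.29 to 12.1 CPM for Lipe, and 0 to 1.38 CPM for Plin1, highest in obese midpoint cells. The other marker lists summed, over the 18 libraries, to 27.2 to 134 CPM for pan-leukocyte genes, 78.7 to 394 for macrophages, 0.464 to 5.58 for T and NK cells, 972 to 2769 for fibroblasts (led by Col3a1), 5.26 to 17.2 for endothelium, 12.4 to 87.7 for fat cells, 0.827 to 15 for erythroid cells and at most 0.292 CPM for secretory mammary epithelium. Most of the fibroblast sum was Col3a1 and Pdgfra, at group means of 1401 to 1847 and 128 to 424 CPM. Col1a1 had 0.952 to 10.1, Col1a2 1.03 to 6.4, Dcn 0.772 to 30.7 and Lum 0.215 to 9.41 CPM. Which cells made the Col3a1 and Pdgfra RNA was not tested. In RNA from pooled cells of a tumor, fewer cells of a type and less RNA per cell cannot be told apart.

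The upstream stretches of 4 genes are shown: Fasn and Fads2, which fell with time in obese hosts, Elovl6, which rose in both hosts, and its sister elongase Elovl5 for comparison. Each is the 250 bases before the RefSeq start in build GRCm38.p6, written 5′ to 3′ on the strand of the gene. Capitals mark matches, on either strand, to 4 motifs: TCACNCCAC (a sterol regulatory element), CCAAT (the NF-Y box), CACGTG (an E-box, which reads the same on both strands) and GGGCGG (an Sp1 site).
Fasn, chr11:120824548-120824797, minus strand: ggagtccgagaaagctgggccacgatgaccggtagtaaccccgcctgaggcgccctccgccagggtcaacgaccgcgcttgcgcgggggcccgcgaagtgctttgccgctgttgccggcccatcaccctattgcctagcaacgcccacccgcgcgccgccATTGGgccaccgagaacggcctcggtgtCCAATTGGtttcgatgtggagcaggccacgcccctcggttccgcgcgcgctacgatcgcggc
Fads2, chr19:10101504-10101753, minus strand: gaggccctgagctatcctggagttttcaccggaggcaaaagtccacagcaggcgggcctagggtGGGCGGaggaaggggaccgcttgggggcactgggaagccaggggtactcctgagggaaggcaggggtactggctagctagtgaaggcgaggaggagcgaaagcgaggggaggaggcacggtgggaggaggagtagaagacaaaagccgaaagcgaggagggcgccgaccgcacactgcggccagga
Elovl6, chr3:129532136-129532385, plus strand: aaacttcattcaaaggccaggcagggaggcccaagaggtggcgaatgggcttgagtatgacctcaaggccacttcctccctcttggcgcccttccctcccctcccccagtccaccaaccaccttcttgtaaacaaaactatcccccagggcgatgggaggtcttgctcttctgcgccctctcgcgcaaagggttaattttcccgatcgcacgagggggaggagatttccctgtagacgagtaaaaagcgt
Elovl5, chr9:77917115-77917364, plus strand: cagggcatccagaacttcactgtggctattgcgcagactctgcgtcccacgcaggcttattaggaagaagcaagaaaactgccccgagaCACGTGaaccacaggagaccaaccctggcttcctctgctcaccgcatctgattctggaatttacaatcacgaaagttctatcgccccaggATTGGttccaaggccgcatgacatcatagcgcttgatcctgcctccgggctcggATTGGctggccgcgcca
The Fasn stretch holds 3 CCAAT matches. One lies 62 bases before the start on the strand of the gene, and it overlaps an opposite-strand match 59 bases before the start. The third lies 90 bases before the start. The Fads2 stretch holds 1 GGGCGG match and the Elovl6 stretch holds none of the 4 motifs. The Elovl5 stretch holds 1 CACGTG and 2 CCAAT matches.

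RefSeq promoters were found for 7 of the 10 genes, 9 promoters in all because Srebf1 has 3 starts. Scd1, Scd2 and Fads1 were not matched. The stretch taken for Acaca, chr11:84195188-84195437, lies inside the counted gene, which starts at 84129672, and so is not upstream of the whole gene. The Fasn stretch begins at 120824548, apart from the counted end of that gene at 120824178. Counted over 300 bases, from 250 before to 50 after the start, CCAAT was in 5 of the 9 promoters and in 37.4% of all 32817 promoters. GGGCGG was in 4 of the 9 and in 35.6% of all. CACGTG was in 1 of the 9, that of Elovl5, and in 7.15% of all. TCACNCCAC was in 0 of the 9 and in 1.24% of all. A match is only a run of letters in this window.

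Per kilobase of exon and averaged over the 18 libraries, Fasn was the most abundant of the 10 transcripts at 71.7 ± 43.7 CPM per kilobase (SD, n = 18). Scd2 followed at 56.7 ± 14.0 and Fads2 at 54.3 ± 28.4 CPM per kilobase, although the exon length counted for Fads2 was only 1508 bases. Elovl5, Acly, Fads1 and Scd1 lay between 25.8 and 37.6 CPM per kilobase. Srebf1 (15.4), Elovl6 (8.11) and Acaca (3.66 CPM per kilobase) were lowest. Acaca, the enzyme that commits acetyl-CoA to fat, thus had the lowest level per length and the longest exon sequence, 15155 bases.

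The order of these levels per kilobase differed between the groups, and most neighbours overlapped in their libraries. In lean midpoint cells Scd2 led at 69.8 ± 2.8 CPM per kilobase (SD, n = 4), with Fasn at 65.1 ± 17.5 and Fads2 at 63.7 ± 20.7 overlapping it. In obese midpoint cells Fasn led at 125 ± 51.1 CPM per kilobase (SD, n = 5), and its libraries overlapped those of Fads2 at 82.5 ± 26.7. Lean endpoint cells again had Scd2 first at 65.3 ± 6.57 CPM per kilobase (SD, n = 4), and here its 4 libraries lay above all 4 of Fasn. Obese endpoint cells had Scd2 at 48.5 ± 5.37, Elovl5 at 44.7 ± 1.66 and Fasn at 43.9 ± 7.42 CPM per kilobase (SD, n = 5), with overlapping libraries. At midpoint Elovl6 was last, overlapping Acaca, and at endpoint it stood above Acaca and overlapped Srebf1.

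**Figure D1:**
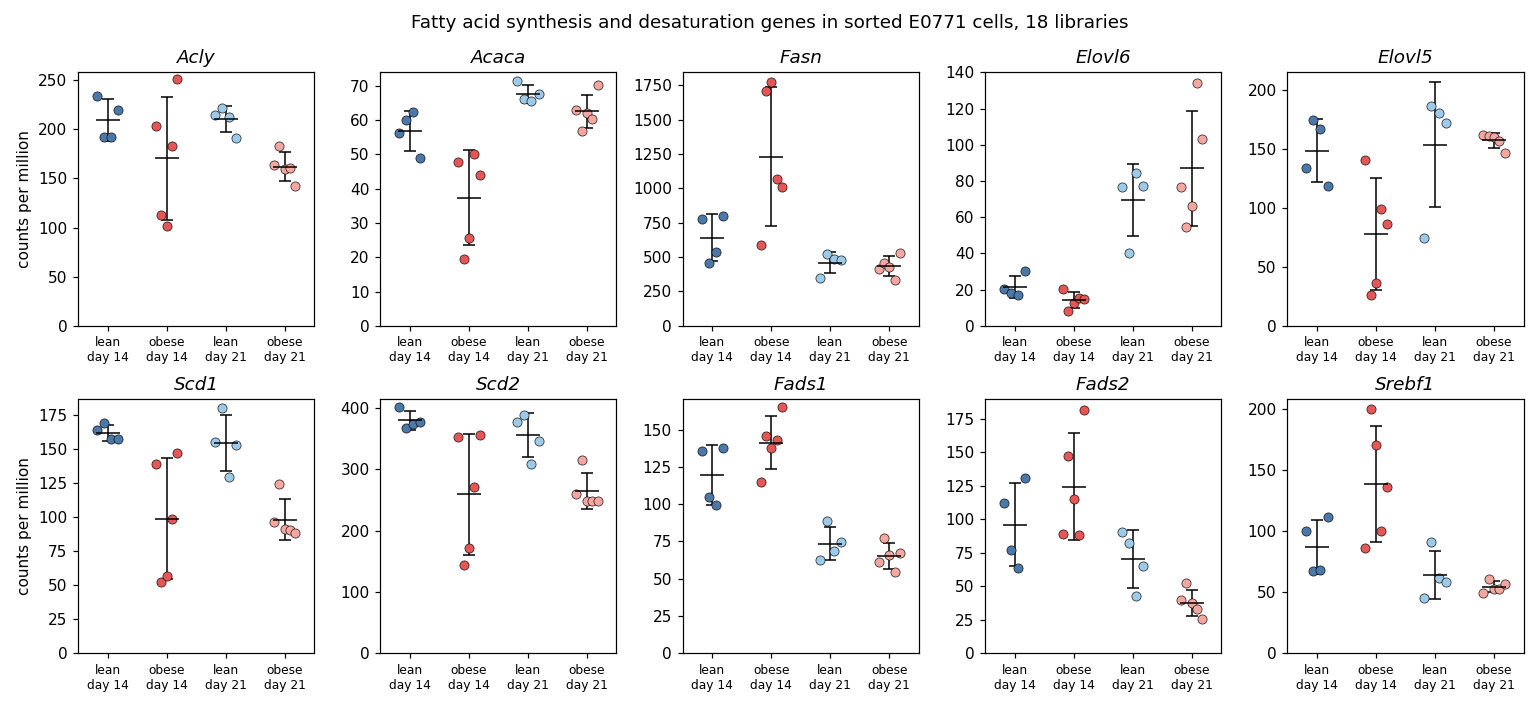
Levels in CPM (vertical axes from 0) of the 10 genes in each of the 18 libraries, by host and day; points are libraries, horizontal bars are group means and whiskers are SD. Elovl6 lies between 8.06 and 30.2 CPM at day 14 and between 40.4 and 134 CPM at day 21, and the SD is largest in the obese day 14 group for Fasn (504 CPM), Scd1 (44.6 CPM) and Scd2 (99.1 CPM).

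The first comparison asked how cells from obese hosts differed from cells from lean hosts at midpoint. Fasn and Srebf1 were higher in cells from obese hosts as counted, and Scd1 and Acaca were lower. These were 2 genes called higher and 2 called lower of 10, against 16.7% of all tested genes called higher, 12.8% called lower and 29.5% called in either direction. After correction 0 of the 10 were called, against 11% of all genes (7.59% higher and 3.4% lower). Of all called genes 56.5% were higher as counted, 69.1% corrected, 46.8% with DESeq2's size factors in place of TMM, 43.8% with a replicate block and 33.2% without the filter on low counts. The median log2 fold change of the 10 genes was -0.43 as counted and -0.11 corrected, and that of all genes was -0.001 and 0.07.

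Fasn (ENSMUSG00000025153, chr11:120805940-120824178 in mm10), which makes palmitate, had 780, 455, 535 and 796 CPM in the 4 lean midpoint libraries and 587, 1709, 1775, 1069 and 1011 CPM in the 5 obese ones. Obese libraries 2 to 5 lay above every lean library, and obese library 1 lay within the lean range. The fold change was 1.92 (log2 0.94 ± 0.27 SE, edgeR's quasi-likelihood test, Benjamini-Hochberg adjusted p = 0.0304). Corrected, it was 0.43 on the log2 scale, with an adjusted p of 0.0631 in the same edgeR test.

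Srebf1 (ENSMUSG00000020538, chr11:60199089-60222581), which encodes SREBP-1, had 100, 67.2, 68.3 and 111 CPM in lean and 86.2, 200, 170, 99.5 and 136 CPM in obese midpoint libraries. Obese libraries 2, 3 and 5 were above all lean libraries, and libraries 1 and 4 were not. The log2 fold change was 0.68 ± 0.25 (SE, edgeR adjusted p = 0.0453) as counted and 0.17 corrected (edgeR adjusted p = 0.4). Of its exon bases, 1.93% overlap Rai1 on the opposite strand, and the sources used here do not say whether counting used strand.

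Scd1 (ENSMUSG00000037071, chr19:44394451-44407709) encodes a desaturase that makes oleate from stearate. It had 164, 169, 157 and 157 CPM in lean and 139, 51.9, 56.9, 98.5 and 147 CPM in obese midpoint libraries. All 5 obese libraries were below all 4 lean libraries, with libraries 2 and 3 lowest. The log2 fold change was -0.71 ± 0.25 (SE, edgeR adjusted p = 0.0403), and -0.43 corrected (edgeR adjusted p = 0.161).

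Scd2 (ENSMUSG00000025203, chr19:44293676-44306864), a second stearoyl-CoA desaturase that is widely expressed, had the same order of obese libraries. It had 402, 367, 374 and 378 CPM in lean and 353, 144, 172, 271 and 357 CPM in obese midpoint libraries. Its groups did not overlap either, so that Scd1 and Scd2 were the 2 genes of 10 with separate groups at midpoint, both lower in obese, against 3.14% of all tested genes. No gene of the 10 had separate groups with obese higher, as 4.9% of all genes did. Scd2 missed the threshold, with a log2 fold change of -0.55 ± 0.21 (SE, edgeR adjusted p = 0.0556). After correction the groups of all 10 genes overlapped, where 6.5% of all tested genes were separate and higher and 2.05% separate and lower.

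Acaca (ENSMUSG00000020532, chr11:84129672-84401651) had 56.2, 60.0, 62.4 and 49.0 CPM in lean and 47.7, 19.4, 25.6, 50.2 and 44.1 CPM in obese midpoint libraries. Obese libraries 2 and 3 were far below the rest and library 4 lay within the lean range. The log2 fold change was -0.61 ± 0.22 (SE, edgeR adjusted p = 0.0434) as counted and -0.17 corrected (edgeR adjusted p = 0.525).

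The other genes did not pass the test at midpoint. Elovl5 (ENSMUSG00000032349, chr9:77917364-77984519), which elongates polyunsaturated chains, had 134, 175, 167 and 119 CPM in lean and 141, 26.5, 36.2, 99.6 and 86.4 CPM in obese libraries, a log2 fold change of -0.93 ± 0.35 (SE, edgeR adjusted p = 0.052). Library 1 of the obese group lay within the lean range and the other 4 lay below it. Elovl6 had a log2 fold change of -0.59, Acly -0.30, Fads1 0.24 and Fads2 0.37, with adjusted p-values of 0.115 to 0.287 in edgeR's test.

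For 9 of the 10 genes the fold change had the sign of the median of all genes of like GC content, and Acly was the exception. The 5 genes with the lowest GC content, Elovl6, Elovl5, Acaca, Scd1 and Scd2 at 46.1% to 50%, had negative fold changes as counted. Fads1, Fads2, Fasn and Srebf1, at 53.2% to 59.4%, had positive ones, and Acly, at 52.3%, had a negative one. The median log2 fold change of all tested genes was -0.58 below 48% GC, -0.17 from 48% to 51%, 0.27 from 51% to 54% and 0.59 above 54%. Among genes above 54% GC, 41.5% were called higher and 0.56% lower. The part of the GC trend in the midpoint differences was not tested beyond the corrected values.

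Leukocyte genes moved with the same comparison. Of 6 pan-leukocyte markers 3 fell and 0 rose in obese midpoint cells, and their sum was 49.8 to 91.1 CPM in lean and 38.6 to 92.3 CPM in obese libraries. The covariate fit used the mean log2 CPM of these 6 markers in each library, not their sum. With it, 0 of the 10 genes and 0 of all genes were called, with the smallest edgeR adjusted p over all genes at 0.314. For the 4 genes called as counted, the log2 fold changes kept their sign and their errors grew. Fasn was 0.77 ± 0.33 with the covariate and 0.94 ± 0.27 without, and Srebf1 0.52 ± 0.30 and 0.68 ± 0.25. Scd1 was -0.84 ± 0.33 and -0.71 ± 0.25, and Acaca -0.59 ± 0.30 and -0.61 ± 0.22 (SE). Elovl6 at -0.26, Fads1 at 0.03 and Fads2 at 0.03 were smaller in size than without the covariate. Acly was -0.445, Elovl5 -0.87 and Scd2 -0.65. The part of leukocytes in the midpoint differences was not tested beyond this fit. Of 8 macrophage markers 3 fell, of 6 fibroblast markers 1, and of 4 tested endothelial markers 1, and of 3 tested fat cell markers 2 rose. Corrected, 2 pan-leukocyte, 1 macrophage, 1 fibroblast and 0 endothelial markers fell and 1 fat cell marker rose.

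The midpoint calls also rested on single libraries. Without lean midpoint library 2 or 3, or without obese midpoint library 2 or 3, 0 of the 10 genes and 0 of all genes were called, whereas without obese midpoint library 1 there were 7 of the 10 and 7946 of all 16268 genes called. Without obese midpoint libraries 2 and 3 together, Fasn had a log2 fold change of 0.46 (edgeR adjusted p = 0.308) and Scd1 -0.36 (edgeR adjusted p = 0.289). Over 31 alternative fits the adjusted p of Fasn ran from 0.00127 to 0.314 and it was called in 21. That of Scd1 ran from 0.00843 to 0.314, with 18 calls. Acaca was called in 13 and Srebf1 in 9.

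**Figure D2:**
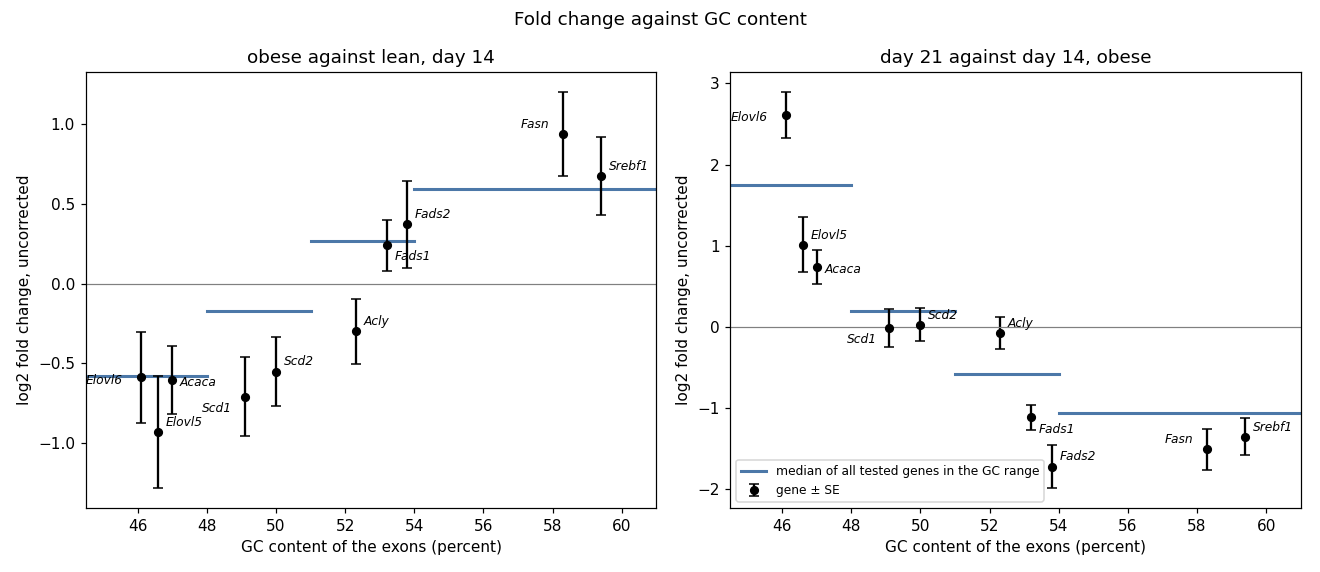
Uncorrected log2 fold change (vertical axes) of the 10 genes against the GC content of their exons in percent (horizontal axes), for obese against lean at day 14 and for day 21 against day 14 in obese hosts; points are genes with SE, and blue lines are medians of all tested genes in 4 ranges of GC content. In the left panel the genes rise with GC content from -0.59 for Elovl6 to 0.68 for Srebf1, and in the right panel they fall from 2.61 to -1.35, on the same side of 0 as the medians of all genes except for Acly at day 14 and Scd1 with time.

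Genes that feed the pathway were described from lists, whose counts stand beside 16.7% of all genes that rose and 12.8% that fell as counted, and 7.59% and 3.4% corrected. Of 12 tested genes that supply acetyl-CoA and NADPH or regulate the carboxylase, 7 rose and 0 fell in obese midpoint cells as counted, and 2 rose after correction. The list's median log2 fold change was 0.55 as counted and 0.16 corrected, beside -0.001 and 0.07 over all genes. Pgd, an NADPH-producing enzyme of the pentose phosphate pathway, went from 113 ± 22.9 (SD, n = 4) to 207 ± 82.3 CPM (SD, n = 5). Its log2 fold change was 0.87 as counted (edgeR adjusted p = 0.0304) and 0.94 corrected (edgeR adjusted p = 0.032). G6pdx, the enzyme that opens that pathway, rose from 408 ± 40.2 (SD, n = 4) to 579 ± 87.3 CPM (SD, n = 5), with 0.51 both as counted and corrected and the same edgeR adjusted p-values. Mcat, the mitochondrial malonyltransferase, and Tkt, transketolase, rose by log2 0.80 and 0.66 as counted and were not called after correction.

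Of 15 tested elongation and desaturation enzymes outside the 10 genes, 3 rose (Elovl1, Fads3 and Tecr) and 1 fell (Cyb5b) at midpoint as counted, and 3 rose after correction, Fads3 and Tecr no longer among them. Elovl1, an elongase of very long saturated chains, was called in both fits, with log2 fold changes of 0.67 and 0.46. Of 15 tested genes of SREBP, LXR and ChREBP control, 4 rose and 2 fell as counted, and 1 rose after correction. That gene was Scap, which escorts SREBP from the endoplasmic reticulum to the Golgi, with log2 fold changes of 0.98 as counted and 0.67 corrected (edgeR adjusted p = 0.0389 corrected). Insig2, which retains SCAP, fell by 0.64 on the log2 scale as counted and was -0.11 corrected. Of 16 cholesterol synthesis and uptake genes, 2 rose and 3 fell, and of 8 glycerolipid synthesis genes 2 rose and 2 fell. After correction 0 genes of these last lists were called.

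The second comparison set obese against lean hosts at endpoint. None of the 10 genes passed the test, and 1 of all 16352 genes did (0.00612%), so that the comparison gave calls almost nowhere. At an unadjusted p under 0.05 in edgeR's test there were 800 of the 16352 genes. That is near the 1 in 20 that chance alone passes at this threshold. By DESeq2 13 genes were called and by limma-voom 0. Of the 10 genes 8 had negative log2 fold changes, with a median of -0.21 beside -0.005 over all genes. The corrected medians were -0.30 and -0.03.

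Scd1 and Acly were the 2 genes whose endpoint groups did not overlap, both lower in obese, against 1.33% of all tested genes, and none of the 10 was separate and higher, against 0.636%. Scd1 had 155, 180, 129 and 153 CPM in lean endpoint libraries 1, 2, 3 and 5, and 96.4, 124, 90.8, 90.4 and 88.3 CPM in the 5 obese ones. The highest obese library lay just under the lowest lean library. The fold was 0.635 (log2 -0.66 ± 0.25 SE, unadjusted p = 0.0153 and adjusted p = 0.989 in edgeR's test), and the corrected log2 fold change was also -0.66. Over the 31 alternatives it ran from -0.75 to -0.55, and its adjusted p from 0.308 to 1.

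Acly (ENSMUSG00000020917, chr11:100476353-100528000) had 215, 222, 213 and 191 CPM in lean and 164, 183, 160, 161 and 142 CPM in obese endpoint libraries. All obese libraries were below all lean ones, with a log2 fold change of -0.37 ± 0.21 as counted and -0.36 corrected (SE, edgeR adjusted p = 0.989 and 0.672). Scd2 had 378, 389, 309 and 347 CPM in lean and 260, 316, 248, 249 and 248 CPM in obese endpoint libraries, where obese library 2 lay above lean library 3. Its log2 fold change was -0.43 as counted and corrected.

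Fads2 (ENSMUSG00000024665, chr19:10064164-10101503), the delta-6 desaturase that starts polyunsaturated chain remodeling, had the lowest endpoint fold change of the 10. It had 90.8, 82.4, 42.3 and 65.4 CPM in lean and 39.9, 52.1, 37.5, 33.2 and 25.8 CPM in obese libraries. Only obese library 2 overlapped the lean range, through lean library 3. The log2 fold change was -0.90 ± 0.27 (SE, unadjusted p = 0.00373, adjusted p = 0.888 in edgeR's test) and -0.87 corrected. Fasn, Srebf1, Acaca, Fads1, Elovl5 and Elovl6 lay between -0.24 and 0.32 as counted. The GC slopes of lean and obese endpoint libraries overlapped, and the median of all genes stayed between -0.06 and 0.09 in each of the 4 ranges of GC content.

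None of the 16 cholesterol genes passed the test at endpoint. All 16 had negative log2 fold changes, with a median of -0.62 as counted and -0.65 corrected, beside -0.005 and -0.03 over all genes. Pmvk, phosphomevalonate kinase, averaged 46.3 ± 6.98 CPM over 4 lean and 25.6 ± 5.38 CPM over 5 obese libraries (SD), a log2 fold change of -0.85 (edgeR adjusted p = 0.622). Dhcr7, which makes cholesterol in its last step, had -0.77 and Stard4, a sterol carrier, -0.74. Of the supply list 11 of 12 genes were below 0, with Acss2, the cytosolic acetyl-CoA synthetase, at -0.75 (edgeR adjusted p = 0.989). Insig1, a sterol-responsive partner of SCAP, averaged 71.1 ± 7.07 CPM over 4 lean and 41.9 ± 8.07 CPM over 5 obese libraries (SD). It had a log2 fold change of -0.76, also with an edgeR adjusted p of 0.989. No gene of the 5 pathway lists was called at endpoint.

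**Figure D3:**
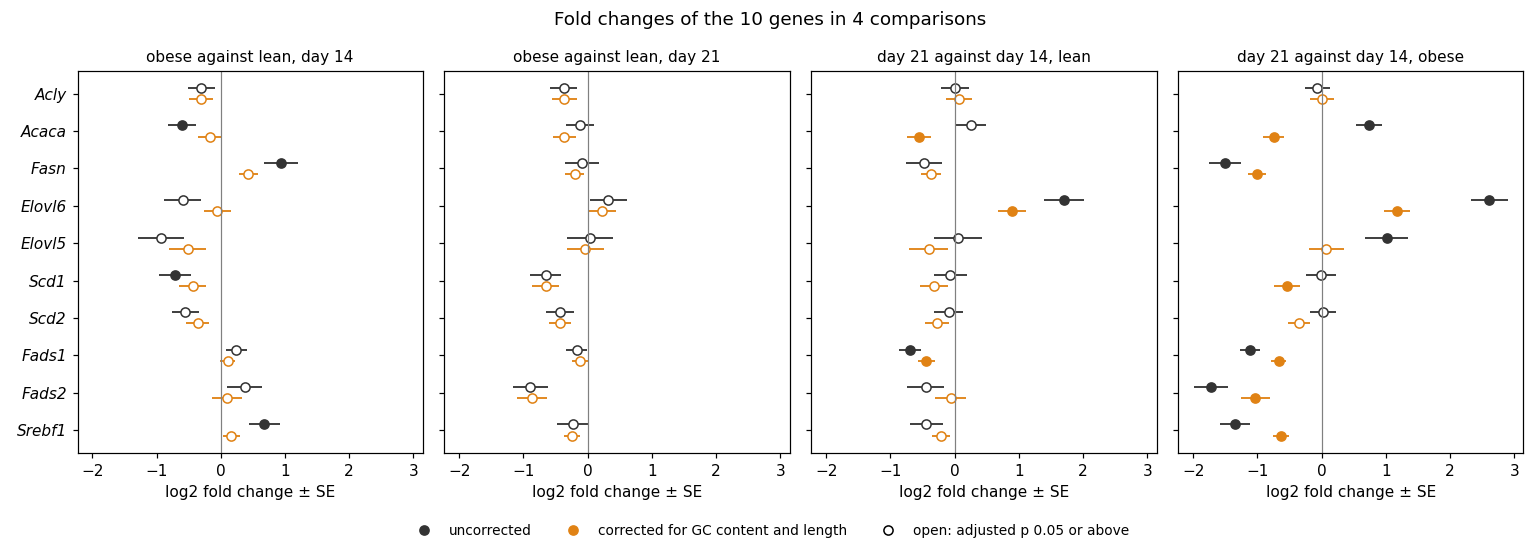
Log2 fold changes with SE (horizontal axis) of the 10 genes in 4 comparisons, as counted (black) and corrected for GC content and length (orange); filled points have an edgeR adjusted p under 0.05. Elovl6 is to the right and Fads1 to the left with time in both hosts and both fits, Acaca crosses 0 with time after correction, and no point is filled for obese against lean at day 21.

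A test of the interaction asked whether the obese to lean difference itself changed from midpoint to endpoint. No gene of the 10, and 0 of all 16352 genes (0.0%), passed edgeR's test, in which the smallest adjusted p over all genes was 0.0983. At an unadjusted p under 0.05 there were 5451 genes. Fads2 had an interaction of -1.27 ± 0.39 on the log2 scale (SE, edgeR adjusted p = 0.0983), Fasn -1.03 ± 0.37 (0.101) and Srebf1 -0.91 ± 0.34 (0.104). Corrected, these were -0.97, -0.63 and -0.41. Elovl5 and Elovl6 had positive interactions of 0.96 and 0.91 as counted and 0.48 and 0.28 corrected. DESeq2 called 1 of the 10, Fads2 (adjusted p = 0.041), among 1557 genes. limma-voom called 5, namely Fads1, Fads2, Fasn, Srebf1 and Elovl5, among 5119 genes. Without obese midpoint library 1, edgeR called 5 of the 10 and 5656 genes.

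The largest differences were with time. From midpoint to endpoint Elovl6 rose and Fads1 fell in cells from lean and from obese hosts, and this held in all 31 alternative fits of both comparisons. In 18 of the 31 fits 1 library was left out, in some from a group not being compared. All 31 reuse the same counts, so they are not independent tests. Of all tested genes 20.8% rose in both hosts and 8.7% fell in both. In cells from obese hosts Fasn, Fads2 and Srebf1 fell as well, also in all 31. Both comparisons were made within a host group, so they share no libraries with each other. Day and the mitochondrial share and GC slope, which moved with it, cannot be told apart by this design beyond the corrected values.

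In lean hosts 1 of the 10 genes rose and 1 fell, against 21.4% of all tested genes that rose, 9.5% that fell and 30.9% in either direction. The share of the 10 was no higher than that of all genes. Corrected, 1 rose and 2 fell, and of all genes 11.9% rose and 11.1% fell (23% in all), where as counted 69.2% of the called genes had risen and corrected 51.8%. In obese hosts 3 of the 10 rose and 4 fell, against 37.8% and 36.1% of all genes and 73.9% in either direction, so the count of 7 of 10 was near that of all genes. Midpoint and endpoint libraries did not overlap for 2 genes that were higher and 1 that was lower in lean hosts, against 19.9% and 13.2% of all genes, and for 3 higher and 4 lower in obese hosts, against 31.3% and 28.9%. Corrected, 1 rose and 6 fell, against 24.7% and 32% (56.7% in all). The median log2 fold change of the 10 genes in obese hosts was -0.04 as counted and -0.58 corrected, beside -0.001 and -0.10 over all genes.

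Elovl6 (ENSMUSG00000041220, chr3:129532386-129638495) elongates palmitate to stearate. In lean hosts it had 20.4, 18, 16.9 and 30.2 CPM at midpoint and 76.5, 40.4, 84.6 and 77.0 CPM at endpoint. In obese hosts it had 20.6, 8.06, 12.4, 15.3 and 14.7 CPM at midpoint and 76.7, 54.5, 66.4, 134 and 103 CPM at endpoint. Every endpoint library was above every midpoint library, with lean endpoint library 2 the lowest of the later ones.

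The fold of Elovl6 was 3.26 in lean (log2 1.70 ± 0.31 SE, edgeR adjusted p = 0.000597) and 6.11 in obese hosts (log2 2.61 ± 0.29 SE, edgeR adjusted p = 5.62e-07). Corrected, the log2 fold changes were 0.90 and 1.17, called in both hosts (edgeR adjusted p = 0.00759 and 6.55e-05), and the corrected libraries of the lean hosts overlapped between the times. Over the alternatives the adjusted p in lean hosts ran from 1.87e-06 to 0.00759 and in obese hosts from 2.72e-20 to 6.55e-05. Genes below 48% GC, the range of Elovl6, had median log2 fold changes of 0.91 in lean and 1.75 in obese hosts. In the lean endpoint library that was left out, Elovl6 had 598 CPM when scaled to chromosomes 1 to 4 alone, above the 213 to 412 of the other 4 lean endpoint libraries and the 90.4 to 156 of the lean midpoint ones. When chromosomes 1 to 4 alone were fitted and that library was included (19 in all), the log2 fold change was 1.84 ± 0.31 in lean hosts (SE, edgeR adjusted p = 0.000134). The obese to lean log2 fold change of Elovl6 at endpoint was 0.155 in that fit, beside 0.318 in the 18 libraries. Its interaction was 0.686, beside 0.907.

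Fads1 (ENSMUSG00000010663, chr19:10182888-10196870), the delta-5 desaturase that completes arachidonate, moved the other way. In lean hosts it had 136, 105, 99.2 and 138 CPM at midpoint and 62.2, 88.7, 68.6 and 74.6 CPM at endpoint. In obese hosts it had 115, 146, 138, 143 and 165 CPM at midpoint and 61.4, 77.3, 65.8, 54.1 and 67.3 CPM at endpoint. In both hosts every endpoint library was below every midpoint library.

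Fads1 fell to a fold of 0.616 in lean (log2 -0.70 ± 0.17 SE, edgeR adjusted p = 0.00459) and 0.462 in obese hosts (log2 -1.11 ± 0.15 SE, edgeR adjusted p = 3.96e-06). Corrected, these were -0.44 (edgeR adjusted p = 0.0184) and -0.67 (edgeR adjusted p = 6.59e-05) on the log2 scale. Over the alternatives the adjusted p ran from 0.000204 to 0.0287 in lean and from 1.97e-11 to 0.000257 in obese hosts. The interaction of Fads1 was -0.42 ± 0.23 (SE, edgeR adjusted p = 0.19), so a difference between the 2 falls was not shown.

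In obese hosts the other 3 genes that fell in every fit were Fads2, Fasn and Srebf1. Fads2 had 89.3, 147, 115, 88.5 and 182 CPM at midpoint and 39.9, 52.1, 37.5, 33.2 and 25.8 CPM at endpoint, with no overlap. This was a log2 fold change of -1.72 ± 0.27 (SE, edgeR adjusted p = 1.24e-05) as counted and -1.03 corrected. Fasn endpoint libraries had 412, 458, 428, 331 and 532 CPM, all below the lowest midpoint value of 587 CPM. This gave a log2 fold change of -1.51 ± 0.25 (SE, edgeR adjusted p = 2.75e-05) as counted and -1.01 corrected.

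Srebf1 had 49.2, 60.8, 52.6, 52.0 and 56.5 CPM in the obese endpoint libraries, again all below the midpoint libraries, of which the lowest had 86.2 CPM. The log2 fold change was -1.35 ± 0.23 (SE, edgeR adjusted p = 3.71e-05) as counted and -0.63 corrected (edgeR adjusted p = 0.000245). In lean hosts these 3 genes did not pass the test, at -0.45 for Fads2, -0.48 for Fasn and -0.44 for Srebf1 (edgeR adjusted p = 0.229, 0.181 and 0.187). Lean endpoint libraries had 44.9, 91.0, 61.2 and 58.3 CPM of Srebf1, and without library 2, the highest, Srebf1 was called at -0.71 (edgeR adjusted p = 0.0369).

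Elovl5 and Acaca rose with time in obese hosts only as counted. Elovl5 had 162, 161, 160, 157 and 147 CPM in obese endpoint libraries, above all obese midpoint libraries. Its log2 fold change was 1.01 ± 0.34 (SE, edgeR adjusted p = 0.0111) and 0.07 corrected (edgeR adjusted p = 0.833). Acaca had 63.1, 56.9, 62.0, 60.4 and 70.3 CPM at endpoint, also above all midpoint libraries. That was a log2 fold change of 0.74 ± 0.21 (SE, edgeR adjusted p = 0.0031), and after correction it was -0.75 (edgeR adjusted p = 0.000873), so the direction turned. In lean hosts Acaca was 0.25 as counted and -0.56 corrected (edgeR adjusted p = 0.0374), which turned as well.

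Acly, Scd1 and Scd2, the cleavage enzyme and the desaturases, were not called with time as counted. Their log2 fold changes ran from -0.10 to 0.004 in lean and from -0.07 to 0.03 in obese hosts. Corrected, Scd1 was called in obese hosts at -0.54 (edgeR adjusted p = 0.0258). Without obese midpoint libraries 2 and 3 together, 9 of the 10 genes were called in obese hosts, as were 11010 of all 16600 genes tested in that fit. Scd1 (-0.39), Scd2 (-0.31) and Acly (-0.39) were then called lower, and Elovl5 was not called (0.54). With lean endpoint library 1 left out as well, all 10 were called, among 11230 of 16587 genes, with Elovl5 at 0.53 (edgeR adjusted p = 0.0106, and 0.000295 to 0.848 over its alternatives).

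The related lists were followed with time as well, beside 37.8% of all genes that rose and 36.1% that fell in obese hosts as counted, and 24.7% and 32% corrected. Markers of other cells moved there too. Of 6 pan-leukocyte markers 3 rose and 2 fell (0 and 1 corrected), and of 8 macrophage markers 2 rose and 0 fell (1 and 1). Of 6 fibroblast markers 3 rose and 2 fell (3 and 3). Group means of Dcn went from 0.772 to 30.7 CPM and those of Lum from 0.215 to 9.41. Those of Col1a1 went from 10.1 to 2.73 and those of Col1a2 from 6.4 to 3.04 CPM. For Pdgfra they were 128 and 355, and for Col3a1 1538 and 1847 CPM. The 4 tested T and NK markers all fell in both fits, from sums of 0.822 to 5.58 CPM to 0.472 to 0.589 CPM. Of 5 erythroid markers 2 rose (4 corrected), and of 3 tested fat cell markers 1 rose and 2 fell (0 and 2). In lean hosts 3 fibroblast markers rose and 2 fell (2 and 3 corrected), 3 pan-leukocyte markers fell (2), 1 macrophage marker rose (0, with 2 that fell), 1 T and NK marker fell (2), 1 endothelial marker fell (2), and 1 fat cell marker rose and 1 fell (1 and 0). The part of these cells in the time differences was not tested beyond the leukocyte covariate, with which the same 2 genes of the 10 were called in lean and the same 7 in obese hosts. Of the 12 supply genes, 2 rose and 9 fell there as counted, and 0 rose and 7 fell corrected. Slc25a1, the citrate carrier that exports the substrate of Acly, fell from 33.2 ± 11.2 to 10.3 ± 1.57 CPM (SD, n = 5 each), by 1.69 on the log2 scale and by 0.60 corrected. Me1, the malic enzyme that makes NADPH, rose in lean hosts from 10.6 ± 2.42 to 21.8 ± 3.41 CPM (SD, n = 4 each), by 1.05 as counted and 0.51 corrected (edgeR adjusted p = 0.0177), the only supply gene called there. Among the 15 other elongation and desaturation enzymes 5 rose and 4 fell in obese hosts as counted, and 0 rose and 11 fell corrected. Tecr, the reductase that closes each elongation cycle, fell by 1.57 and by 0.54 corrected on the log2 scale.

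Of the 15 SREBP, LXR and ChREBP control genes, 4 rose and 10 fell in obese hosts as counted, and 1 rose and 7 fell corrected. Srebf2, which encodes SREBP-2, fell from 271 ± 99.5 to 82.7 ± 15.2 CPM (SD, n = 5 each), by 1.71 on the log2 scale and by 1.00 corrected. Of the 16 cholesterol genes 5 rose and 9 fell as counted, whereas 0 rose and 12 fell corrected, with median log2 fold changes of -1.06 and -0.99. Of the 8 glycerolipid genes 4 rose and 2 fell as counted, and 2 rose and 1 fell corrected. Acsl3, which activates fatty acids for lipid synthesis, rose in both hosts and both fits, by 1.90 and 0.90 corrected in lean and by 2.52 and 0.82 corrected in obese hosts. In lean hosts, where 21.4% of all genes rose and 9.5% fell (11.9% and 11.1% corrected), 1 supply gene rose and 0 fell in both fits. Of the other elongation and desaturation enzymes 0 rose and 2 fell (0 and 1 corrected), of the control genes 2 and 4 (0 and 2), of the cholesterol genes 3 and 2 (1 and 0), and of the glycerolipid genes 2 and 0 (1 and 0).

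Ratios between paired enzymes of like GC content were taken within each library. The correction for GC content and length still moved some of them. With time in obese hosts the log2 difference of Scd1 to Scd2 was -0.007 as counted and -0.175 corrected. That of Fads2 to Fads1 was -0.585 and -0.345. The pairs were chosen after their values had been seen. None of the 12 comparisons passed Benjamini-Hochberg adjustment of a two-sided exact permutation test, in which the smallest adjusted p was 0.0952. The smallest p this permutation test can give is 0.0159 for 4 against 5 libraries, 0.0286 for 4 against 4 and 0.00794 for 5 against 5. No comparison could therefore pass adjustment over 12 tests on its own, and the missing calls do not show that the ratios were alike. Scd1 to Scd2, at 49.1% and 50% GC, was 0.463, 0.521, 0.471 and 0.496 per kilobase in lean endpoint libraries and 0.418, 0.442, 0.413, 0.409 and 0.402 in obese ones. The obese ratios were all below the lean ones, by 0.23 ± 0.05 on the log2 scale (SE), while each group spread over a narrow range. At midpoint the lean ratios were 0.459 to 0.519 and the obese ratios 0.372 to 0.466, which overlapped. The midpoint difference was -0.19 on the log2 scale, and after correction the differences were -0.22 at endpoint and -0.10 at midpoint.

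Elovl6 to Elovl5, at 46.1% and 46.6% GC, was 0.0599 to 0.15 per kilobase in lean and 0.0863 to 0.202 in obese midpoint libraries. At endpoint it was 0.128 to 0.605 in lean and 0.201 to 0.506 in obese libraries. The log2 differences with time were 1.71 in lean and 1.33 in obese hosts, and 1.48 and 0.94 corrected, with overlapping ranges in each. Fads2 to Fads1, at 53.8% and 53.2% GC, was 1.41 to 3.35 in lean and 0.877 to 1.54 in obese endpoint libraries, which overlapped through lean library 3. The log2 difference was -0.71 ± 0.30 (SE), and -0.49 without lean endpoint library 1, the library with the ratio of 3.35.

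**Figure D4:**
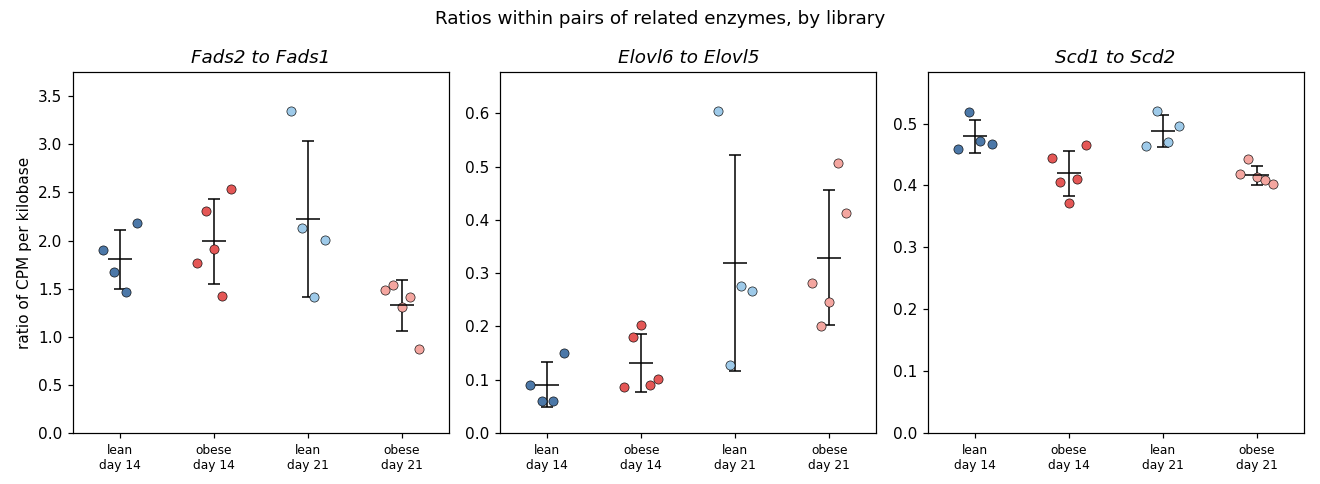
Ratio of CPM per kilobase (vertical axes from 0) within 3 pairs of related enzymes in each of the 18 libraries, by host and day; points are libraries, bars are group means and whiskers are SD. At day 21 the 5 obese Scd1 to Scd2 ratios lie between 0.402 and 0.442, below the 4 lean ratios of 0.463 to 0.521, while the other pairs overlap between hosts.

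The genes also differed in how closely their profiles ran together over the 18 libraries, measured as the root mean square difference of log2 CPM after centring each gene. Scd1 and Scd2 were each other's nearest among the 10, at 0.131, and remained so after correction at 0.13. Fasn and Srebf1 were each other's nearest at 0.221, but after correction Srebf1 was nearest to Fads1 at 0.153 and Fasn to Fads1 at 0.213. Elovl6 stood farthest from any of the others, 0.909 from Acaca. Of genes outside the 10, the nearest to Fads2 were Acat2, Dhcr7 and Pmvk at 0.201 to 0.224. The nearest to Scd1 was Sqle at 0.211, followed by Rufy1 and Rhou at 0.237 each. For Scd2 it was Bbs2 at 0.155, then Sqle at 0.158 and Cnn3 at 0.166. Acat2, Dhcr7, Pmvk and Sqle are genes of sterol synthesis, with Acat2 forming acetoacetyl-CoA. For Acly, Acaca, Fads1 and Elovl5 the nearest were Ralb, Neo1, Bahd1 and Tmed2, at 0.142, 0.0911, 0.126 and 0.211. The nearest to Fasn were Cad, Tsc2 and Plec (0.097 to 0.127), to Srebf1 Zswim1, Dnlz and Fam83g (0.105 to 0.114), and to Elovl6 Dock10, Celf4 and Epm2aip1 (0.206 to 0.209). The 3 nearest to Fasn have GC contents of 54.9% to 61%, near its own 58.3%. Sqle has 48.7%, near the 49.1% of Scd1, and the 3 nearest to Fads2 have 50.5% to 55.5%, around its 53.8%. The distances are descriptions over libraries that share depth and GC trend.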

How the data were processed

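RNA from sorted mCherry-positive E0771 cells was sequenced, and the authors deposited raw read counts per gene; TopHat, DESeq and mm10 are named per the submitters' processing notes, without versions. The sources used here give no strand settings. Groups were read from the sample labels. Counts were tested with edgeR 4.0.16 in R 4.3.3 (filterByExpr, TMM, quasi-likelihood test, 1 mean for each of the 4 groups, Benjamini-Hochberg threshold 0.05) in 5 contrasts over 18 libraries, with log2 CPM at a prior count of 2. The corrected fit added natural splines of GC content and exon length (4 degrees of freedom each) as offsets, with GC known for 98.6% of the tested genes. Alternatives used DESeq2 1.42.0, limma 3.58.1, other filters and scalings, and left out libraries. The edgeR fits were tried on simulated data for obese against lean at midpoint only. Where a GC trend was simulated, the dispersion was set below that of the data. The 10 genes, 5 pathway lists, 10 marker lists and all tests were chosen with earlier results of these data known. Named genes were the 10, up to 4 of each list with the smallest p per contrast, and the nearest profiles. The precision is limited by 4 or 5 libraries per group, and p-values measure the spread between these tumors.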

Additional observations from a re-analysis of the deposited data

Results flagged for a closer look

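In 4 of the 40 sets formed by a gene and a group, 1 library stood apart from the rest by Dixon's test, which chance alone flags in about 1 of 20 sets. In obese endpoint library 2, Scd1 had 124 CPM against 88.3 to 96.4 in the other 4 libraries, and Scd2 had 316 CPM against 248 to 260. In lean endpoint library 1, Elovl5 had 74.8 CPM against 172 to 187 in the other 3, and that library had a mitochondrial share of 44.7%. In lean endpoint library 2, Elovl6 had 40.4 CPM against 76.5 to 84.6, and that library had a GC slope of -0.0666. The lean endpoint library that was left out held 6544 counts of Elovl6, which is signal outside the comparisons.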

How the results depend on the processing

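The time changes of Elovl6 and Fads1 in both hosts, and those of Fasn, Fads2 and Srebf1 in obese hosts, kept direction and call in 31 of 31 alternatives; the midpoint calls did not. Where a value below changed, the cause was not tested. Replicate numbers did not pair the libraries: 6 of 24 same-numbered pairs had r over 0.1, with a median of -0.0387 against 0.0126 for other pairs. With a replicate block 4392 genes were called at midpoint, 0 at endpoint, 0 in the interaction, 3727 with time in lean and 11875 in obese hosts.

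At midpoint 8458 genes were called by limma-voom, 1797 with the GC and length correction, 1 with the block and correction, and 0 with the compared groups alone, the leukocyte covariate or either left-out set (obese midpoint 2 and 3, with or without lean endpoint 1). Of the 10 genes 7 were called by limma-voom and 0 in those other fits. At endpoint 13 genes were called by DESeq2, 2 and 0 with the left-out sets, and 0 by limma-voom, the compared groups alone and the block. The interaction gave 1557 genes and 1 of the 10 by DESeq2, and 5119 and 5 by limma-voom. With time in lean hosts 2834 genes were called with block and correction. Leaving out 1 library gave 0 to 7946 genes and 0 to 7 of the 10 at midpoint, 0 to 1 gene at endpoint, 0 to 5656 genes and 0 to 5 of the 10 in the interaction, and 3251 to 6388 genes with time in lean hosts, the lowest without lean midpoint library 1.

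Log2 values that turned sign are given by gene. In the following, "corrected" is the GC and length correction, "blocked and corrected" adds the replicate block, and a range is that of leaving out 1 library. Acaca was -0.19 corrected and -0.15 blocked and corrected in the interaction, -0.56 and -0.59 with time in lean hosts, and -0.75 and -0.74 with time in obese hosts. Acly, near 0, was 0.018 with RLE and with DESeq2, 0.025 without filter, 0.088 with the leukocyte covariate and 0.016 without mitochondrial genes in the interaction (range -0.183 to 0.104). With time in lean hosts Acly was -0.028 with RLE and with DESeq2, -0.044 without filter, -0.012 at 5 CPM, -0.015 by limma-voom, -0.022 with the compared groups alone and with the larger left-out set, -0.069 with the covariate and -0.058 with the smaller left-out set (range -0.076 to 0.05). With time in obese hosts Acly was 0.007 corrected, 0.052 blocked and corrected, 0.019 with the covariate and 0.021 without mitochondrial genes (range -0.218 to 0.108), and at midpoint 0.024 by limma-voom.

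Elovl5 with time in lean hosts was -0.008 by limma-voom, -0.403 corrected, -0.438 blocked and corrected and -0.006 with the smaller left-out set (range -0.112 to 0.241). At endpoint Elovl5 was -0.037 corrected, -0.022 blocked and corrected and -0.197 with the larger left-out set (range -0.189 to 0.158). Scd1 in the interaction was -0.196 by limma-voom, -0.222 corrected, -0.112 blocked and corrected, and -0.263 and -0.303 with the left-out sets (range -0.074 to 0.24). With time in obese hosts Scd1 was 0.048 with RLE and with DESeq2, 0.04 without filter, 0.042 at 5 CPM, 0.043 blocked, 0.061 with the covariate and 0.078 without mitochondrial genes (range -0.18 to 0.175), and in lean hosts its range was -0.202 to 0.012. Scd2 in the interaction was -0.106 by limma-voom, -0.075 corrected, -0.002 blocked and corrected, and -0.148 and -0.164 with the left-out sets. With time in obese hosts Scd2 was -0.222 by limma-voom, -0.35 corrected, -0.323 blocked and corrected, and -0.309 and -0.307 with the left-out sets (range -0.131 to 0.165). At endpoint the range of Fasn was -0.199 to 0.003 and that of Srebf1 -0.369 to 0.003. The log2 ratio of Fads2 to Fads1 at midpoint was -0.02 corrected. That of Scd1 to Scd2 with time was -0.052 corrected in lean hosts, with ranges of -0.006 to 0.065 in lean and -0.049 to 0.032 in obese hosts, and that of Elovl6 to Elovl5 at endpoint ranged from -0.191 to 0.558.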
